A study of Mus musculus with 22 samples.

Results

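The cells described here were barcodes of mouse tissue libraries that passed a gate for type 2 dendritic cells. A barcode entered the gate when it had at least 200 detected genes and at most 25% mitochondrial transcripts, at least 1 unique molecular identifier (UMI, a captured transcript) of Cd209a or at least 1 of both Clec10a and Flt3, at least 5 of Cd74, and 0 of Xcr1, Clec9a, Ccr7, C1qa, Cd79a and Cd3e. The gate held 784 of the 93055 tissue barcodes that passed the quality limits (0.843%), out of 176676 tissue barcodes and 179929 barcodes in the series. The cells were thus selected on the measured UMIs of these 10 genes, whose levels are given as a description and were not tested. Cd209a lies on chromosome 8 (3743397 to 3748984, minus strand, mm10 with GENCODE vM21 models), Flt3 on chromosome 5 (147330741 to 147400489, minus strand) and Clec10a on chromosome 11 (70156197 to 70170834, plus strand), near the related lectin gene Mgl2 (70130329 to 70137550, plus strand).

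The study made droplet single-cell RNA profiles of mice without tumours to compare organ cells, and cells shed into blood, with and without the sodium leak channel gene Nalcn. All mice carried Prom1-CreERT2 and the Rosa26ZSG lineage reporter. The strain entries gave no further allele in the wild-type (wt) group, Nalcn-het in the het group and Nalcn-null in the null group. In the study's methods the Nalcn allele is conditional and was recombined by tamoxifen in cells that express Prom1, so "null" does not mean that every cell of a pool lacked Nalcn. Each tissue library pooled kidney, liver, lung and stomach with epididymis in males or uterus in females. The wt group had 5 libraries, namely replicates 1 and 2 (both male, 571 days), 3 (male, 608 days), 4 (female, 611 days) and 5 (female, 654 days). The het group had 2 libraries, replicates 1 and 2 (both male, 551 days), and the null group had replicate 2 (male, 552 days) and replicate 3 (labelled female, 611 days). The group of null replicate 3 was taken from its strain entry, and those of the other grouped libraries from their titles. For another 2 tissue libraries the genotype in the title was not the one in the strain entry, and they entered no group: a male one of 610 days (het in the title, Nalcn-null in the strain entry) and a female one of 647 days (null in the title, no Nalcn allele in the strain entry). Whether libraries of equal age and sex came from separate mice is not stated, so p-values measure the spread between libraries. Sex and the uterus or epididymis in the pool cannot be told apart.

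Conventional dendritic cells take up material in tissues, load peptides onto class II molecules and show them to T cells. Type 1 cells are known for cross-presentation to CD8 T cells and depend on Irf8 and Batf3, whereas type 2 cells are known for priming CD4 T cells, carry Sirpa and Itgam, and depend in part on Irf4. Cd209a (DC-SIGN related) and Clec10a are C-type lectin receptors for sugars, Flt3 is the growth factor receptor of the dendritic lineage, and Cd74 is the invariant chain that escorts class II molecules.

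One library stood apart from its label. The library labelled null replicate 3 is labelled female with a uterus, but its 9364 passing barcodes held 6 listed epididymal genes at a summed 24928 CPM (UMIs of a gene scaled to a common library total), against 661 to 27177 CPM in the male libraries and 7.83 to 23.7 CPM in the other female ones. Summed Y-linked genes stood at 43.0 CPM in that library, against 184 to 222 CPM in males and at most 0.0728 CPM in the other females, and 67.5% of its barcodes had an Xist UMI. Of the 83 gated cells in this library 75 had Xist and 1 had a Y-linked gene but no Xist, so most of its gated cells held the female marker. It is called the library labelled null replicate 3 below. Total UMIs of the 9 libraries with a group ran from 8571019 in wt replicate 5 to 139793927 in wt replicate 2. No cell barcode of the gate occurred in more than 1 library.

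Gated cells were found in each of the 11 tissue libraries. Their share of passing barcodes was 1.23% in wt replicate 1 (73 of 5941, exact 95% Clopper-Pearson interval 0.964 to 1.54), 1.32% in wt replicate 2 (240 of 18242), 1.20% in wt replicate 3 (67 of 5601), 0.735% in wt replicate 4 (96 of 13067) and 0.348% in wt replicate 5 (1 of 287). The het libraries had 0.480% (36 of 7498) and 0.939% (38 of 4048), and the null libraries 0.494% (43 of 8710) and 0.886% (83 of 9364). Over both sexes the shares of all 3 genotypes overlapped, through the female wt replicates 4 and 5. Among male libraries they did not: wt stood at 1.20% to 1.32%, and het and null at 0.480% to 0.939%. Among female libraries the order was the other way, with 0.886% in the library labelled null replicate 3 against 0.735% and 0.348% in wt. The genotype comparisons of shares below were not adjusted for sex. Wt replicate 2 alone gave 240 of the 677 gated cells in libraries with a group. Intervals cover counting error only.

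**Figure D1:**
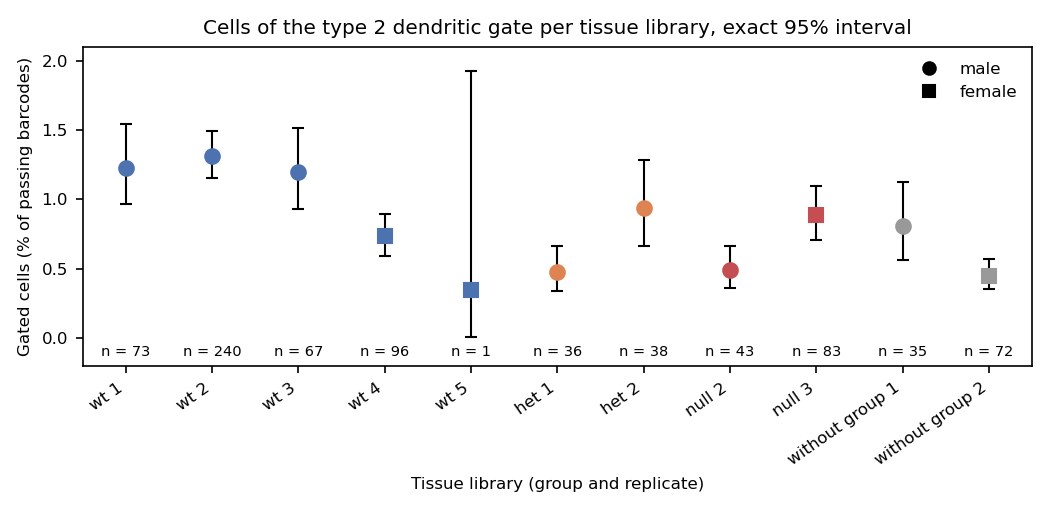
Share of passing barcodes in the type 2 dendritic gate (vertical axis, percent) in each tissue library (horizontal axis), with exact 95% Clopper-Pearson intervals as bars and the number of gated cells below. The male wt libraries lie between 1.20% and 1.32%, and het and null libraries lie between 0.480% and 0.939%, within the range from 0.348% to 1.32% of all wt libraries.

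The mean share was 0.700% ± 0.247 (SD, n = 4) in het and null together and 0.965% ± 0.412 (SD, n = 5) in wt, a difference of -0.265 percentage points (exact two-sided permutation p = 0.286, adjusted p = 0.476 over 4 comparisons, smallest possible p 0.0159). Without wt replicate 5, which had a single gated cell, this difference was -0.419 points (exact permutation p = 0.0857). Null libraries had 0.690% ± 0.278 (SD, n = 2) and het libraries 0.709% ± 0.324 (SD, n = 2), and neither differed from wt beyond the spread (both exact permutation p = 0.476, smallest possible 0.0952, so this design cannot reach 0.05). The null difference was -0.275 points, with -0.471 without the library labelled null replicate 3 and -0.0784 without null replicate 2, and the het difference was -0.255 points, with -0.026 without het replicate 1 and -0.485 without het replicate 2. The 3 female libraries had 0.656% ± 0.277 and the 6 male ones 0.942% ± 0.374 (exact permutation p = 0.262), and this difference of -0.286 points was -0.132 without wt replicate 5 and -0.401 without the library labelled null replicate 3. As a share of Ptprc-positive barcodes, the difference of het and null from wt turned to 0.370 percentage points, so its direction followed the denominator. A share cannot tell fewer dendritic cells from more cells of other kinds in the pool. Entry to the gate also depends on depth, which differed between libraries. Median UMIs of passing barcodes were 3217, 3294, 1999, 1521 and 6363 in wt replicates 1 to 5. They were 2327.5 and 1550 in het and 1045.5 and 1788 in null libraries. With a stricter quality filter, the difference of het and null from wt was 0.0133 percentage points. The part of depth in the shares was not tested.

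Cd209a was the main way into the gate. It was present in 740 of the 784 cells (94.4%), another 44 cells entered through Clec10a and Flt3 alone, and 70 cells met both conditions. A single Cd209a UMI was all that 299 cells (38.1%) had, and the median was 2. For comparison, a Cd209a UMI was seen in 0.950% of T cells (Cd3e-positive), 0.962% of B cells (Cd79a-positive) and 0.807% of endothelial cells (Cdh5-positive), with median depths of 1900 to 2045 UMIs against 3310.5 in the gate. Free RNA in the droplets gives such UMIs in cells that do not express a gene. Just inside the Cd74 limit, 48 cells with 5 to 9 Cd74 UMIs held H2-Ab1 at 994 CPM, and just outside it, 42 cells with 1 to 4 held it at 123 CPM, against 6646 CPM in the 736 cells with 10 or more.

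The markers of type 2 dendritic cells that the gate did not use were present in part of the cells. A UMI of the class II gene H2-Ab1 was found in 98.7% of gated cells, of the phagocytosis checkpoint receptor Sirpa in 41.5%, of the integrin Itgax (CD11c) in 42.2%, of the lectin Mgl2 (CD301b) in 30.1%, of the transcription factor Irf4 in 14.2% and of Zbtb46, a factor of conventional dendritic cells, in 12.8%. Among the gate's own genes, Clec10a was found in 47.3% and Flt3 in 23.5% of cells. At 1000 UMIs per cell, to which cells were thinned so that depth did not differ, Mgl2 was seen in 18.5% of gated cells, against 0.963% of type 1 dendritic cells and 0 of 1354 classical monocytes, whose sums in the 8 libraries with at least 20 gated cells held 8 Mgl2 UMIs before thinning, and in 20.3% of macrophages that express complement C1q. Flt3 was seen in 9.03% of thinned gated cells, 11.3% of type 1 cells, 0.323% of macrophages and 0.443% of monocytes, although Flt3 served the gates. Sirpa was seen in 17.5% of thinned gated cells and 5.78% of type 1 cells, but in 29.04% of macrophages and 23.8% of monocytes. Itgax was seen in 14.7% of thinned gated cells, 11.4% of type 1 cells, 13.3% of macrophages and 2.36% of monocytes. Sirpa thus did not mark the gated cells off from the other myeloid classes. Thinning left out 31, 25, 599 and 42 shallower cells of the 4 classes in the order type 2, type 1, macrophages and monocytes.

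The gate was mixed. Clustering of the 784 cells by their own genes gave 14 clusters, and 9 of these, with 399 cells (50.9%), held at least 3 markers of another cell class at 2 or more times the level of the other gated cells and in at least 10% of their cells. The kidney tubule genes Kap, Slc34a1 and Miox led 86 cells, 60 of them in wt replicate 2. The monocyte genes F13a1, Fn1, Thbs1 and Lyz2 led 66 cells of 10 libraries. The interferon-stimulated genes Rsad2, Isg15 and Irf7, with the macrophage genes Fcgr1 and Gpnmb, led 60 cells, 58 of them in wt replicate 2. The plasmacytoid genes Siglech, Ccr9 and Cox6a2 led 47 cells, and Siglech was found in 97.9% of them. The genes Chil3, Ear1 and Marco, known from alveolar macrophages, led 41 cells, by a marker list that was added after the clusters had been seen. The endothelial genes Cldn5 and Ptprb led 37 cells, the neutrophil genes S100a8 and S100a9 31, haemoglobin genes 18, and the connective tissue and epithelial genes Dcn, Crisp1 and Krt8 13.

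The 9 are called clusters led by other classes below. The remaining 5 clusters, with 385 cells, did not meet that limit. Mgl2 and Ciita, the master regulator of class II genes, were among the leading genes of cluster 1 (102 cells), together with the hepatocyte gene Alb. Cluster 2 (99 cells) was led by the chemokines Ccl3 and Ccl4 and the stress-response genes Atf3 and Zfp36, and Il1b was found in 79.8% of its cells. Cluster 3 (91 cells, 48 of them in wt replicate 4) was led by the immunoglobulin genes Igkc and Ighg2c and by Xist, with no dendritic gene among its leading genes, and had the lowest median depth among the 5 at 1750 UMIs. It was kept because it did not reach 3 markers, so the 385 cells are not free of B cell RNA: without the 9 clusters the B cell list of wt replicate 4 stood at 7301 CPM, against 5270 CPM with them. Cluster 7 (53 cells) was led by the T cell-attracting chemokine Ccl17 and the costimulatory gene Cd80, with Il1b in 88.7% of cells. Cluster 10 (40 cells) was led by the division genes Top2a, Birc5 and Ube2c, and Mki67 was found in 87.5% of its cells. H2-Ab1 was present in all 385 of these cells. The highest scores of a doublet caller (Scrublet) were marked in each library, up to a share set beforehand at 0.8% per 1000 barcodes. This share ran from 1.48% in wt replicate 5 to 22.3% in wt replicate 4 and was 21.0% in wt replicate 2. Marked were 19 of the 385 cells (4.94%), 123 of the 399 others (30.8%) and, by this setting, 16.2% of all passing tissue barcodes. The part of the library in the gap between the 2 sets of cells was not tested.

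**Figure D2:**
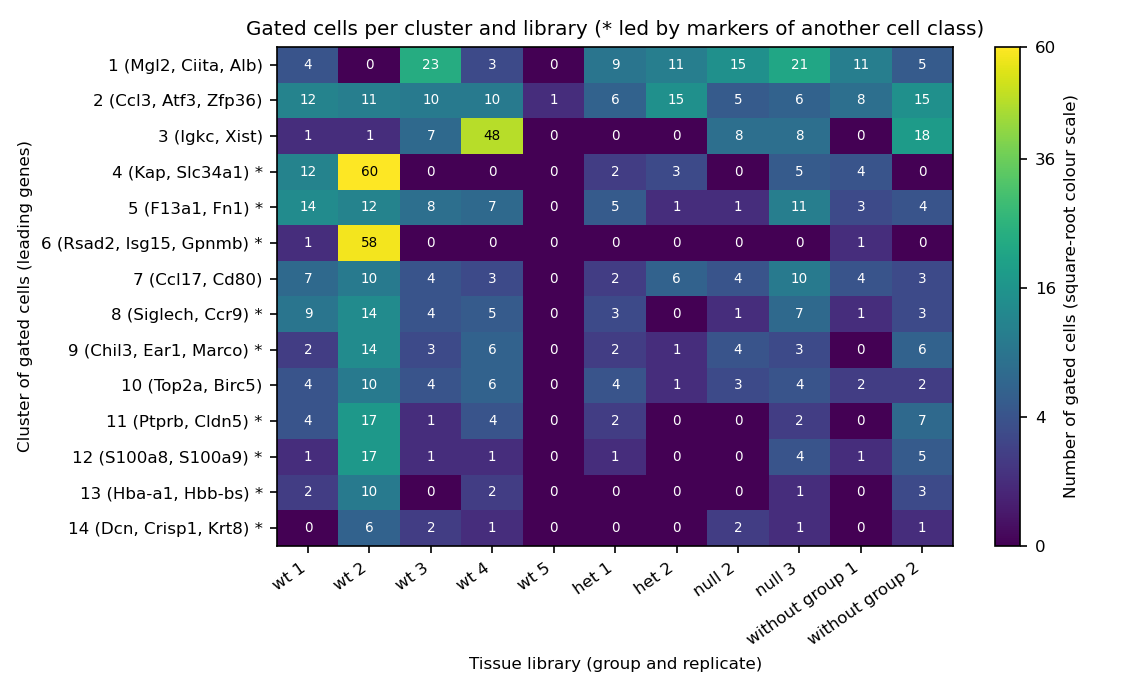
Number of gated cells (colour on a square-root scale, with the count printed) in each of 14 clusters (rows, named by leading genes) and 11 tissue libraries (columns). Asterisks mark the 9 clusters that met the limit for markers of another cell class. The kidney tubule cluster (60 of 86 cells) and the interferon cluster (58 of 60) lie mainly in wt replicate 2, whereas clusters 2 and 10 are spread over 11 and 10 libraries.

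To see what sets the gated cells apart, their UMIs were summed per library and compared, within the 8 libraries that held at least 20 of them (4 wt, 2 het, 2 null), with 3 other gates. These were type 1 dendritic cells (Xcr1 or Clec9a), C1q-positive macrophages (C1qa and C1qb) and classical monocytes (Ly6c2 and Csf1r), each without Cd209a. Genes used by either of the 2 gates compared were left out of that test. Genes that go with a gate gene had to differ by construction. These were the other genes of type 1 cells against type 1 cells, macrophage genes such as C1qc against macrophages, and monocyte genes against monocytes. Since the monocyte gate set no minimum for Cd74, they also included the class II genes against monocytes. The calls therefore describe how the gates differed over the 8 libraries and are no evidence that the cells form a type. The 3 comparisons share the same sums of gated cells. In the text, "higher" and "lower" refer to calls at an adjusted p under 0.05 in edgeR's quasi-likelihood test with library as block. Levels are in CPM. Log2 differences are given with a standard error (SE), taken as the size of the difference divided by the square root of the test's F statistic. CPM compares 1 gene between classes, not genes with each other.

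**Figure D3:**
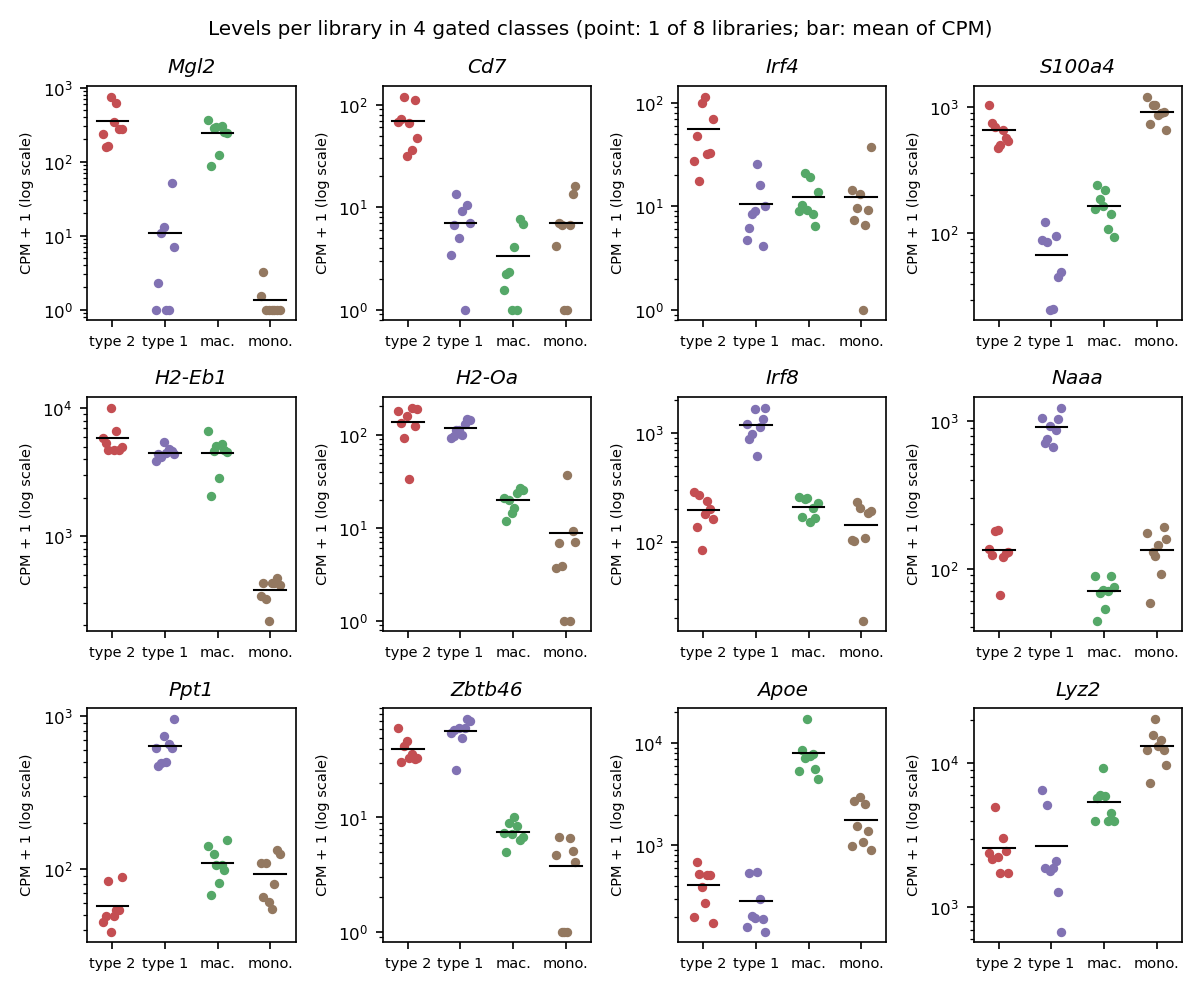
Level of 12 genes (CPM + 1, log scale) in 4 gated classes, with 1 point for each of 8 libraries and a bar at the mean. Mgl2 lies at 159 to 756 CPM in the type 2 gate and at 0 to 2.24 CPM in monocytes, Irf8 at 83.2 to 285 CPM in the type 2 gate and at 612 to 1699 CPM in type 1 cells, and Zbtb46 overlaps between the type 2 and type 1 gates.

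Class II genes separated the gated cells from monocytes. Of 13 tested genes of the class II presentation list, 10 were higher and 2 lower, and the list's median log2 difference was 3.33, against 0.01 over all 4941 genes tested, of which 25.6% were called (13.4% higher, 12.2% lower). H2-Eb1, a class II beta chain, ranged from 4713 to 10111 CPM with a median of 5165 in the gated cells and from 217 to 470 CPM with a median of 422.5 in monocytes, a log2 difference of 4.00 (SE 0.17, adjusted p = 3.65e-11). The ranges of this gene did not overlap between the classes. H2-Ab1 (median 6187 against 652 CPM) and H2-Aa (6153 against 668 CPM) had log2 differences of 3.41 and 3.33. H2-Oa, a subunit of the DO molecule that restrains peptide loading, ranged from 32.3 to 193 CPM (median 145) against 0 to 35.7 CPM (median 4.32), with overlap (4.93, SE 0.33), and Ciita from 104 to 290 CPM against 8.64 to 24.1 CPM (3.65, SE 0.17). Lgmn and Ctss, lysosomal proteases that trim antigen and the invariant chain, were the 2 lower genes.

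The class II genes lie together on chromosome 17, and their promoters carry known boxes bound by a shared complex that recruits Ciita. Of 8 class II genes listed, 7 had a promoter in the RefSeq table (GRCm38.p6, 250 bases before to 50 after the start). All 7 held the Y box letters ATTGG, which 37.4% of 32851 promoters of that length hold on either strand. The X box letters AGCAAC followed by ATTGG after 5 to 40 bases, on either strand, occurred in 3 of the 7, namely H2-Eb1, H2-Oa and H2-Ob, and in 191 of all promoters (0.581%). The windows below show 80 bases of these 3 and of H2-Aa, which held ATTGG but not AGCAAC. H2-Eb1, H2-Oa and H2-Aa were each higher than in monocytes. The windows run 5′ to 3′ on the gene's strand from 110 to 31 bases before the start, and capitals mark the boxes.
H2-Eb1, chr17:34305757-34305836, plus strand: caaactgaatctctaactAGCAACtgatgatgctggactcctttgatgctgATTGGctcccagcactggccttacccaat
H2-Oa, chr17:34092269-34092348, plus strand: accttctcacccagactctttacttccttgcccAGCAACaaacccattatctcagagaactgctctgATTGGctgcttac
H2-Ob, chr17:34238795-34238874, plus strand: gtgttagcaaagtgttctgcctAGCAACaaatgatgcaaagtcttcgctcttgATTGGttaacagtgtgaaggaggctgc
H2-Aa, chr17:34287854-34287933, minus strand: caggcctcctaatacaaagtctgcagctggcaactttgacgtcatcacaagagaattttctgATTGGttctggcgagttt
The distance from the end of AGCAAC to the start of ATTGG was 27 bases in H2-Eb1, 28 in H2-Oa and 25 in H2-Ob. A match of letters is a description of these windows and was not tested as a binding site.

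Against monocytes, single genes of dendritic identity and of T cell contact were also higher in the gated cells. The summed type 2 identity list, given below, was lower than in monocytes in each library of the fit. Mgl2 ranged from 159 to 756 CPM in the gated cells and from 0 to 2.24 CPM in monocytes (log2 7.33, SE 0.29), the largest difference among called genes at 50 CPM or more. Ccl17, a ligand of the T cell receptor Ccr4, ranged from 31.7 to 381 CPM against 0 to 8.25 CPM (6.69, SE 0.42). Zbtb46 ranged from 29.6 to 59.9 CPM against 0 to 5.76 CPM (3.32, SE 0.42), and Irf4 from 16.4 to 113 CPM against 0 to 36.5 CPM, with overlap between libraries (1.97, SE 0.34). Icosl, the ligand of the T cell costimulator ICOS, stood at a median of 35.6 against 9.78 CPM, and Gpr183, a receptor for oxysterols that guides dendritic cell position, at 67.5 against 16.6 CPM. Il1rl1, the interleukin 33 receptor, stood at medians of 24.0 and 0 CPM.

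Monocyte genes were low in the gated cells, as the monocyte gate's demand for Ly6c2 and Csf1r made likely. Of 18 tested genes of the monocyte and macrophage list, 14 were lower and 0 higher than in monocytes. Lyz2, lysozyme, ranged from 1725 to 4967 CPM (median 2297) in the gated cells and from 7315 to 20461 CPM (median 12799) in monocytes, without overlap (log2 -2.24, SE 0.13). Vcan, a matrix proteoglycan of monocytes, was at a median of 0 against 145 CPM (-5.14, SE 0.32), and Thbs1 and Fn1, adhesive matrix proteins, differed by -3.68 and -3.14. The endotoxin co-receptor Cd14 (median 190.5 against 900 CPM), the RNA sensor Tlr7 (8.19 against 38.2 CPM) and the fungal sensor Clec4e (35.6 against 249 CPM) were lower as well. In pattern recognition, 5 of 10 tested genes were lower and 2 higher, the latter being Tmem173 (STING) and Aim2, an adaptor and a sensor in the response to cytosolic DNA.

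Against type 1 dendritic cells the class II presentation list had a median difference of 0.23 on the log2 scale. Of 5085 genes tested 16.6% were called (8.85% higher, 7.77% lower). H2-Ab1 ranged from 5283 to 9755 CPM in the gated cells and from 5272 to 8123 CPM in type 1 cells, a log2 difference of 0.04 (SE 0.06, adjusted p = 0.79). H2-Eb1 (0.31, SE 0.09) and H2-Aa (0.21, SE 0.07) were higher in all 8 libraries, and each lost its call in 4 of 15 alternatives. Without the clusters led by other classes, the differences were 0.56 in H2-Ab1, which was then called, 0.87 in H2-Eb1 and 0.76 in H2-Aa. H2-Ob, the DO beta chain, was lower (-0.85, SE 0.15), but was at -0.18 and not called without those clusters, and the protease gene Ctsh was higher (1.03, SE 0.12). In all, 6 of 13 class II presentation genes were higher and 1 lower.

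The type 2 identity list separated the 2 dendritic gates. Of its 17 tested genes 11 were higher in the gated cells and 1 lower, with a median log2 difference of 1.53 against -0.02 over all genes tested. Over the 8 libraries the list's sum was 3488 to 4445 CPM in the gated cells, 3684 to 4830 CPM in macrophages and 4380 to 5841 CPM in monocytes. In each library the sum was lower than in monocytes, so it did not mark the gated cells off from the other myeloid classes. Mgl2 ranged from 159 to 756 CPM (median 275) against 0 to 50.3 CPM in type 1 cells, median 3.67 (5.21, SE 0.44). Itgam (CD11b) ranged from 86.0 to 202 CPM (median 149) against 0 to 30.1 CPM, median 8.98 (3.35, SE 0.37), and S100a4, a calcium-binding protein of motile cells, from 469 to 1033 CPM (median 614) against 24.0 to 122 CPM, median 66.4 (3.24, SE 0.16). In these 3 genes no library of one class reached the range of the other. Irf4 had a median of 39.1 against 7.72 CPM (2.56, SE 0.32), and Zeb2, a factor needed by type 2 cells, of 325 against 87.7 CPM (1.58, SE 0.22). Sirpa stood at 136 to 275 against 15.1 to 243 CPM (0.92, SE 0.26, adjusted p = 0.0233), was higher in 7 of 8 libraries, and lost its call without het replicate 2 or wt replicate 3. Cd24a, found on type 1 cells, was lower (-1.71, SE 0.17).

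Part of the lectin list and most of the chemokine receptor list were higher than in type 1 cells. In the lectin list 6 of 12 tested genes were higher and 2 lower. Clec4b1 ranged from 106.5 to 386 CPM against 3.75 to 20.8 CPM (log2 3.80, SE 0.23), and Clec4a1 had medians of 53.7 and 3.96 CPM (3.06, SE 0.44). Cd209d, a neighbour of Cd209a in the same gene family, ranged from 22.7 to 89.7 CPM against 0 to 19.9 CPM (3.03, SE 0.49), and reads shared among close copies of this family were not examined. Among chemokine receptors 7 of 9 were higher and 0 lower. Cx3cr1, the fractalkine receptor of monocyte-related cells, ranged from 16.4 to 113 CPM against 0 to 16.3 CPM (3.02, SE 0.38). Ccr2, the receptor for monocyte egress from marrow, had medians of 302 and 361 CPM and was not called (-0.08, SE 0.15), with its sign changing under 3 alternatives.

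Genes of type 1 cells were low, as the gate's exclusion of Xcr1 and Clec9a made likely. Of 17 tested 15 were lower and 0 higher, with a median of -2.78. Gcsam had 0 UMIs in the gated cells and 226 in type 1 cells, at least 56.6-fold lower when 3 counts over the group are taken as the floor. Tlr3, the sensor of double-stranded RNA, ranged from 9.88 to 24.6 CPM against 114 to 311 CPM (-3.58, SE 0.19), Itgae (CD103) from 2.82 to 16.2 CPM against 56.4 to 127 CPM (-3.89, SE 0.26), and Naaa from 64.7 to 181.5 CPM against 669 to 1240 CPM (-2.78, SE 0.14). Among regulators, Irf8 ranged from 83.2 to 285 CPM (median 189) against 612 to 1699 CPM, median 1163 (-2.62, SE 0.20), with no overlap. Id2, an inhibitor of other lineage factors, ranged from 142.5 to 363 CPM against 723 to 1069 CPM (-1.90, SE 0.15), and Batf3 from 32.3 to 75.6 CPM against 94.4 to 188 CPM (-1.40, SE 0.14). Zbtb46, which both conventional types express, had medians of 33.8 and 58.5 CPM and was not called (-0.54, SE 0.22, adjusted p = 0.112), except in 2 of 14 alternatives, without het replicate 1 and without wt replicate 1 (-0.74).

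Against type 1 cells, 5 of 17 tested genes of the cytokine and chemokine list were higher and 3 lower. In the maturation and costimulation list 2 of 14 were higher and 2 lower. Over all genes tested 8.85% were higher and 7.77% lower, so so few calls say little about the maturation list. Il1b, the inflammatory cytokine interleukin 1 beta, ranged from 557 to 1868 CPM (median 1068) in the gated cells and from 139 to 528 CPM (median 430) in type 1 cells, without overlap (log2 1.61, SE 0.23). The chemokines Ccl9 (2.77, SE 0.27) and Ccl3 (1.71, SE 0.27) were higher in all 8 libraries. Il12b, a subunit of interleukin 12, had 1 UMI in the gated cells and 102 in type 1 cells. Cxcl9, which attracts T cells after interferon gamma, had medians of 26.5 and 61.6 CPM (-2.04, SE 0.54). Ccl22, an attractant of regulatory T cells that the cytokine and chemokine list does not hold, had medians of 45.0 and 88.9 CPM (-1.51, SE 0.29). Ccl22 was at -0.45 and not called without the clusters led by other classes, and Cxcl9 lost its call in 2 of 15 alternatives, of which 1 left out wt replicate 4 and the other was DESeq2. The costimulatory ligand Cd86 was lower (63.3 against 114 CPM, -0.76, SE 0.19), and its call was lost in 1 of 15 alternatives, as was that of Il12b in 1 of 12. Immediate early and heat shock genes, which rise during tissue digestion, were higher in 16 of 18 cases. Atf3 ranged from 360 to 945 CPM against 75.6 to 303 CPM (1.78, SE 0.24), and Zfp36 from 779 to 1826 CPM against 226 to 455 CPM (1.75, SE 0.17). Cells of all classes came from the same pools, and the part of handling in this difference was not tested.

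Some of these list counts moved when the 9 clusters led by other classes were left out of the gated cells, a choice made after the clusters had been seen. Of 4017 genes then tested against type 1 cells, 470 were higher and 378 lower. The identity list then stood at 10 higher and 1 lower of 15, the type 1 list at 15 lower of 16 and the immediate early list at 15 higher of 18. The monocyte and macrophage list went from 11 higher and 0 lower of 19 to 4 higher and 4 lower of 14. The plasmacytoid list went from 4 higher and 0 lower of 9 to 0 higher and 3 lower of 6, where the Siglech cluster was among those left out. The proliferation list went from 6 lower of 13 to 0 called of 11, and Mki67 from -0.90 to 0.01. Class II genes stood at 7 higher and 0 lower of 13. The other 3 gates were not cleaned in this way.

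Against macrophages several dendritic regulators were higher in the gated cells. Of 9118 genes tested 17.8% were called (8.54% higher, 9.29% lower). Mgl2 had medians of 275 and 268 CPM (log2 0.44, SE 0.20, adjusted p = 0.157), but it was called in 3 of 15 alternatives, with values from 0.04 at 1000 UMIs per cell to 1.26 without the clusters led by other classes. In the list of dendritic lineage regulators 9 of 18 were higher and 0 lower. Zbtb46 ranged from 29.6 to 59.9 CPM against 3.97 to 9.17 CPM (2.71, SE 0.25), and Bcl11a, a factor of dendritic and lymphoid progenitors, from 77.8 to 158.5 CPM against 5.13 to 31.2 CPM (3.67, SE 0.26). Irf4 differed by 2.15 (SE 0.28), Ccl17 by 4.11 (SE 0.60) and Ccl22 by 2.82 (SE 0.38), each with overlapping ranges. The type 2 marker Sirpa was lower, at a median of 217 against 392 CPM (-0.86, SE 0.11), also with overlap. Of the lectins, Cd209d (5.14, SE 0.44) and Cd209c (5.52, SE 0.81) were higher, and the mannose receptor Mrc1 was lower (-1.31, SE 0.15), as 10 of 20 lectins were.

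Within class II presentation, subunits and proteases went opposite ways against macrophages. H2-Oa ranged from 32.3 to 193 CPM against 10.7 to 25.5 CPM (log2 3.04, SE 0.20), and H2-DMb2, a subunit of the DM molecule that loads peptides, from 68.7 to 124 CPM against 5.33 to 24.3 CPM (3.16, SE 0.21). Ciita was higher by 0.83 (SE 0.17), H2-Ab1 by 0.51 (SE 0.11) and H2-Eb1 by 0.43 (SE 0.12), with calls lost in 1, 1 and 4 of 15 alternatives. At 1000 UMIs per cell, H2-Ab1 was at 0.10 and not called. The lysosomal proteases were lower: Lgmn ranged from 74.7 to 276 CPM against 455 to 1021 CPM (-2.47, SE 0.15), and Ctss had medians of 801.5 and 1500 CPM (-1.09, SE 0.15). In all, 9 of 13 genes were higher and 3 lower, the third being the cathepsin gene Ctsz.

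Macrophage genes were low in the gated cells, as the macrophage gate's demand for C1qa and C1qb made likely. C1qc ranged from 0 to 26.4 CPM against 986 to 1775 CPM (log2 -6.62, SE 0.22), a gap that the exclusion of C1qa favours. Apoe, an apolipoprotein, ranged from 175 to 691 CPM (median 451) against 4504 to 17340 CPM, median 7352 (-4.24, SE 0.19). Csf1r, the receptor for macrophage growth factor, ranged from 68.4 to 129 CPM against 192 to 589 CPM (-2.09, SE 0.14). The liver macrophage gene Clec4f had 0 UMIs in the gated cells and 665 in macrophages, at least 35.1-fold lower. In the cytokine and chemokine list, which does not hold Ccl17 and Ccl22, 7 of 19 genes were lower and 1 higher, Il1b (1.05, SE 0.17), and Il10 had 2 UMIs against 174. The chemokine Cxcl2 had medians of 317 and 1081 CPM (-1.59, SE 0.23).

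Plasmacytoid genes were higher in the gated cells than in macrophages and monocytes, a result that depended on the clusters led by other classes. Siglech, a lectin of plasmacytoid cells, ranged from 7.56 to 165.5 CPM with a median of 96.5 CPM, against medians of 7.25 CPM in macrophages (log2 3.95, SE 0.26) and 2.41 CPM in monocytes (3.67, SE 0.36). Ccr9, a gut-homing receptor, ranged from 0 to 141 CPM against 0 to 3.73 CPM in macrophages. In the plasmacytoid list, 9 of 10 genes were higher than in macrophages and 7 of 8 higher than in monocytes. Without the 9 clusters, 0 of 3 and 0 of 2 tested genes of this list were higher. Klrd1 (CD94), a receptor also found on dendritic cells, ranged from 121 to 227 CPM against 2.04 to 16.2 CPM in macrophages (4.72, SE 0.25), and Cd7 from 30.2 to 119 CPM against 0 to 6.72 CPM (5.27, SE 0.36).

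Some costimulatory genes were higher in the gated cells than in the other myeloid classes. In the maturation and costimulation list, 7 of 17 genes were higher and 0 lower against macrophages, and 6 of 14 higher and 0 lower against monocytes. Tnfsf9, the ligand of the costimulator 4-1BB, had medians of 94.0 CPM in the gated cells, 15.4 CPM in macrophages (log2 2.59, SE 0.20) and 12.4 CPM in monocytes (2.85, SE 0.27). Traf1, an adaptor of such receptors, was higher than in macrophages (1.82, SE 0.18) and not called against monocytes (0.21, SE 0.23, turning to -0.0174 without wt replicate 1). Cd83, a surface marker of activated dendritic cells, was higher than in monocytes (0.97, SE 0.17) and than in macrophages (0.33, SE 0.11), where the call held in 7 of 15 alternatives with values from 0.13 to 0.92. Cd80, a ligand of CD28, was higher than in macrophages only among these comparisons (1.26, SE 0.31, call lost in 1 of 14 alternatives), with -0.29 (SE 0.33) against monocytes and 0.01 (SE 0.34) against type 1 cells, both not called, and its sign against type 1 cells changed in 4 of 12 alternatives.

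Part of the immediate early and heat shock list was higher than in the other myeloid classes. Of 18 genes, 7 were higher than in macrophages and 7 higher than in monocytes, and the 2 and 1 lower ones were near or below the share of lower genes over all genes tested (9.29% and 12.2%). Hspa1b, a heat shock protein, ranged from 739 to 1528 CPM in the gated cells, with medians of 1039 CPM in the gated cells, 553 CPM in macrophages (log2 0.96, SE 0.13) and 364 CPM in monocytes (1.45, SE 0.16). Egr1 was lower than in macrophages (-0.64, SE 0.14) and Fos lower than in monocytes (-0.45, SE 0.12). In the interferon-stimulated list, 5 of 14 genes were lower and 1 higher than in monocytes, among them Irf7, the amplifier of interferon responses (-1.08, SE 0.25). Neutrophil genes were lower than in monocytes in 4 of 4 cases, and S100a8 had medians of 52.9 and 238 CPM (-1.62, SE 0.35).

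Markers proposed to divide type 2 cells were sparse. Of 13 genes in the list of type 2 subset genes, 4 to 6 were tested in the main comparisons. Cx3cr1 and Il1rl1 were higher than in type 1 cells, and Clec12a, an inhibitory lectin, was lower (-0.65, SE 0.11), but it was at -0.11 and not called without the clusters led by other classes, and lost its call in 2 of 15 alternatives. Against macrophages Cx3cr1 (log2 -2.14, SE 0.24) and Clec12a (-0.49, SE 0.16) were lower, and Clec12a lost its call in 6 of 15 alternatives, with -0.0041 without the clusters led by other classes. Il1rl1 ranged from 0 to 60.5 CPM over the 8 libraries, the lowest in null replicate 2 and the highest in het replicate 2, and had 0 UMIs in 6 of 8 monocyte sums.

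Division genes were higher in the gated cells than in either class of the monocyte lineage. In the proliferation list, 9 of 9 tested genes were higher than in monocytes and 10 of 14 higher than in macrophages, and without the 9 clusters 10 of 10 and 13 of 14. Mki67, expressed in dividing cells, ranged from 57.1 to 151 CPM in the gated cells, from 11.7 to 64.8 CPM in macrophages (log2 1.34, SE 0.22) and from 0 to 37.3 CPM in monocytes (3.05, SE 0.37). Thinned to 1000 UMIs, 5.18% of gated cells, 8.54% of type 1 cells, 1.61% of macrophages and 0.295% of monocytes had a Mki67 UMI.

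The interferon-stimulated list was highest in wt replicate 2 among the libraries of the fit. The 16 listed genes summed to 6399 CPM in the gated cells of wt replicate 2 and to 1827 to 3247 CPM in the other 7 libraries of the fit. Among the same 8 libraries, this one was also highest in type 1 cells (4304 CPM against 507 to 1149), in macrophages (4905 against 1172 to 2603) and in monocytes (7697 against 3738 to 6274). The 2 libraries without a group had 4374 and 4158 CPM in the gated cells, and 1 of them exceeded wt replicate 2 in monocytes (7955 CPM). Without the clusters led by other classes, the gated cells of wt replicate 2 stood at 2754 CPM, within the range of 1771 to 3175 CPM of the other 7 libraries. The interferon cluster was 1 of those left out, so its removal lowers this list by construction. Of the 240 gated cells of this library 32 remained. Of its 240 gated cells 58 lay in the interferon cluster, in which Isg15 was found in 93.3% of cells and Fcgr1 in 63.3%.

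**Figure D4:**
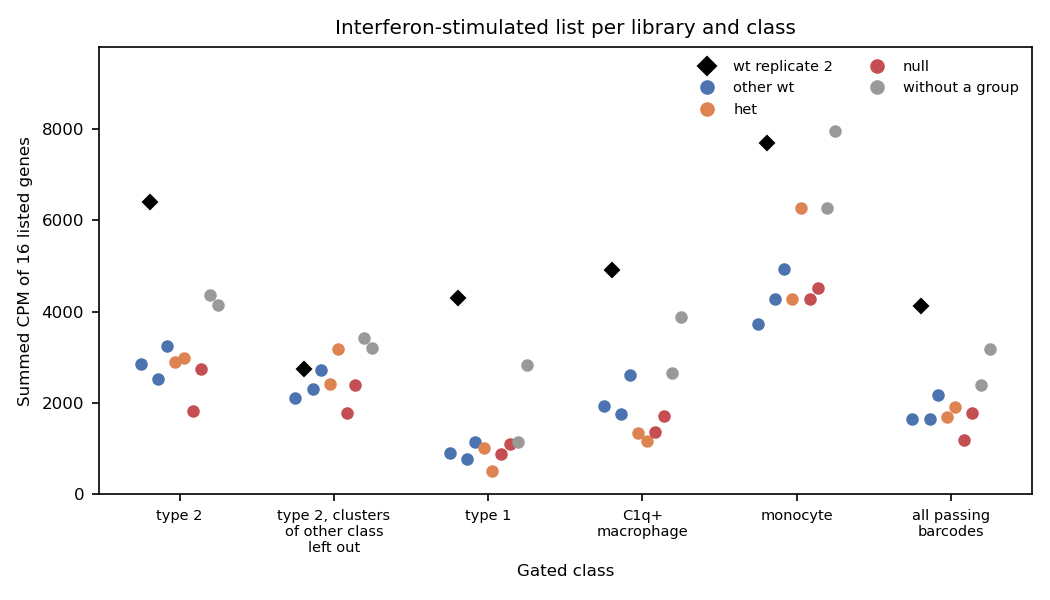
Summed level of 16 interferon-stimulated genes (CPM, vertical axis) per library in 6 populations (horizontal axis), each point a library and the diamond wt replicate 2. Wt replicate 2 lies at 6399 CPM in the gated cells, and at 2754 CPM, among the other libraries, once clusters led by another class are left out. The interferon cluster is among those left out, and 32 of the 240 gated cells of this library remain.

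Nalcn could not be followed in these cells. It had 0 UMIs in 3344171 UMIs of all 784 gated cells, which allows up to 0.897 CPM, and Prom1, whose promoter drives the recombinase, had 18 UMIs in 4 libraries. The genotype comparisons used the sums of the same 8 libraries in 1 fit with sex as covariate. They share the wt libraries, and wt replicate 5 with its single gated cell did not enter.

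Few genes differed between genotypes in the gated cells. Of 4013 genes tested, 1 was called between het and null together and wt (0.0249%), 2 between null and wt (0.0498%) and 0 between het and wt (0%), where 180 genes had an unadjusted p under 0.05 and DESeq2 called 2. Spag11b, an epididymal gene related to beta-defensins on chromosome 8 (19140759 to 19143010, plus strand), stood at 10.6, 8.47, 0 and 0 CPM in wt replicates 1 to 4, at 77.8 and 15.1 CPM in het and at 210 and 409 CPM in null libraries. It was called in het and null together (log2 4.08, SE 0.56, edgeR adjusted p = 0.0355) and in null (5.25, SE 0.69, adjusted p = 0.0106). Defb23, a beta-defensin gene on chromosome 2 (152459055 to 152464620, minus strand), was at 0, 0, 5.28 and 0 CPM in wt, 0 in both het and 113 and 628 CPM in null libraries (7.85, SE 0.79, adjusted p = 0.00232), where the wt level rests on 1 library. DESeq2 gave Defb23 an adjusted p of 0.999. Both null libraries lay above all wt libraries in both genes. The call of Spag11b held in 9 of 17 alternatives for het and null together and in 13 of 17 for null, and that of Defb23 in 11 of 13.

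The epididymal RNA of the whole pool also differed between these libraries. The summed epididymis list in all passing barcodes stood at 4663, 661, 3411 and 7.83 CPM in wt replicates 1 to 4, at 11302 and 21319 CPM in het and at 27177 and 24928 CPM in null libraries, the last being the library labelled null replicate 3. Defb23 was at 0 in both het libraries, and Spag11b was lower in the het library with the higher pool level. The gated cells of het replicates 1 and 2 held 244234 and 132235 UMIs in all, so low levels in them rest on few UMIs. The 6 members of the list in the gated cells summed to 0 to 510 CPM in wt, 113 and 229 CPM in het and 2377 and 2201 CPM in null libraries. Without the library labelled null replicate 3, 0 genes were called between null and wt, and the same held without wt replicate 4, the other female library of the fit. Over the alternatives, the log2 difference in null ran from 4.54 to 10.56 in Spag11b and from 7.05 to 11.95 in Defb23. The part of free epididymal RNA was not tested.

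**Figure D5:**
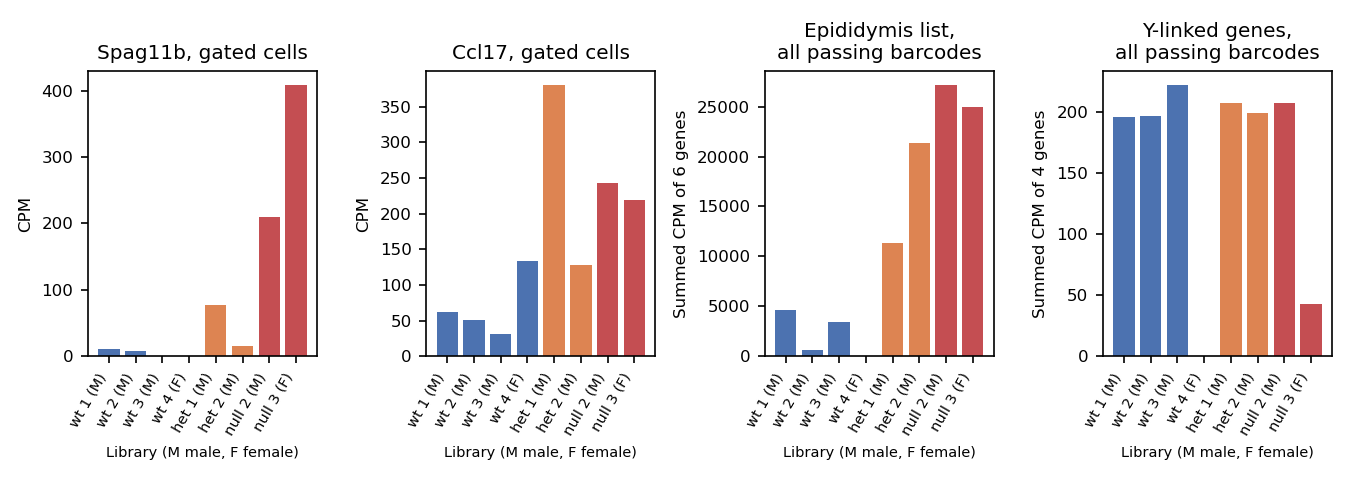
Level (CPM, axis from 0) in 8 libraries of Spag11b and Ccl17 in the gated cells, and of the epididymis list and 4 Y-linked genes in all passing barcodes. Spag11b is at 0 to 10.6 CPM in wt and at 210 and 409 CPM in null libraries, where the epididymis list of the pool is also high (27177 and 24928 CPM).

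None of the 13 class II presentation genes, 16 type 2 identity genes, 16 lineage regulators, 12 maturation genes, 14 cytokine genes or 9 chemokine receptors was called in any of the 3 genotype comparisons, and the class II list had medians of 0.00, -0.04 and 0.18 (het and null together, null, het). Over all 4013 genes tested at most 0.0498% were called, so lists of this size without a call say little about their genes. The interferon-stimulated list had 1 of 14 genes above 0 and a median of -0.95 in het and null together, against -0.01 over all genes, but wt replicate 2 held the highest sum among wt. Without that library the list's median was -0.10, with 3 of 8 genes above 0. Without the clusters led by other classes the list's median was -0.07, but these include the interferon cluster, so that value is no separate check. Ccl17 stood at 61.6, 50.1, 31.7 and 133 CPM in wt, 381 and 129 CPM in het and 243 and 220 CPM in null libraries, with overlap, and was not called (log2 2.27 in het, SE 0.42, edgeR adjusted p = 0.202). It was called in 4 of 17 alternatives for het and null together, in 3 of 17 for het, DESeq2 among them, and in 1 of 17 for null. Ccl22 in het against wt (2.45, SE 0.53) was not called either, except in 1 of 17 alternatives. Klra17, a lectin-like receptor, stood at 62.1 to 179 CPM in wt, at 4.09 and 0 CPM in het and at 16.2 and 132 CPM in null libraries, and was not called in het (-4.60, SE 0.79, adjusted p = 0.202), except in 1 of 17 alternatives. The chemokine Ccl4 stood at 363 to 1267 CPM in wt and 123 and 174 CPM in het, and was not called (-2.47, SE 0.45), except in 3 of 17 alternatives. Rarres2 (4.15, SE 0.84) and Ly6c2 (-2.05, SE 0.42) in het were not called in the main fit. Mgl2 (1.03, SE 0.39), Irf4 (0.32, SE 0.55) and Sirpa (0.13, SE 0.23) in het and null together were not called.

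Between the sexes, 2 of 4013 genes were called (0.0498%), both of the sex chromosomes. Xist, the RNA that silences an X chromosome, was at 0 in the 6 male libraries and at 2267 and 1639 CPM in the 2 female ones (edgeR adjusted p = 1.8e-05). Ddx3y, a Y-linked gene, was at 98.3 to 129 CPM in males and at 0 in females (adjusted p = 0.00219). Their calls were lost in 2 and 3 of 16 alternatives. The gated cells of wt replicate 4 also held the B cell list at a summed 5270 CPM, against 257 to 380 CPM in the other wt libraries of the fit, nearly all of it Igkc (4815 CPM). Those of het replicate 1 held the club cell gene Scgb1a1 at 32706 CPM, against 37.8 to 686 CPM in the other libraries. No gene of the B cell list or of the organ cell list was called with genotype or sex, where at most 0.0498% of all genes tested were. Between libraries of the fit, the red cell list ran from 83.2 to 11667 CPM, the neutrophil list from 16.2 to 1254 CPM, the endothelial and fibroblast list from 30.2 to 291 CPM and the T and NK cell list from 5.28 to 158 CPM. The last stood at 5.28, 41.6, 111 and 101 CPM in wt replicates 1 to 4, at 8.19 and 7.56 CPM in het and at 129 and 158 CPM in null libraries. These other-cell lists thus varied between libraries, and their part in the gene levels was not tested.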

How the data were processed

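Single-cell suspensions of pooled organs were profiled with the droplet 3′ method, and the authors deposited a matrix of UMI counts per gene and barcode for each library, made with Cell Ranger (2.1.1 in the submitters' processing notes, 3.0.2 in the matrix headers) on mm10. The organ of a barcode is not known here, because its hashtag was not read. The counts of 31053 genes were read as deposited, with the filters and gates given above. Counts of gated cells were summed per library where at least 20 were present, which left out wt replicate 5.

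Sums were tested with edgeR 4.0.16 (quasi-likelihood, TMM, filterByExpr, Benjamini-Hochberg adjustment over all genes tested), with sex as covariate for genotype and library as block for classes. Depth of the summed cells ran from 61834 UMIs in null replicate 2 to 1417387 in wt replicate 2, so low genes are less certain in the former. Shares were compared over libraries with an exact permutation test, two-sided. Gated cells were clustered with scanpy 1.11.5 (2000 variable genes, 20 components, 15 neighbours, Leiden resolution 0.8). The highest Scrublet scores of each library, at a share set by its number of barcodes, were marked as doublets but kept. Scripts were tested on simulated data. Alternatives used DESeq2 1.42.0, other size factors, filters, denominators and gates, thinning, and each library left out. Members, lists and tests were chosen with earlier results of these data known. Named genes were members of the gene lists with a known role and up to 10 called genes per direction with the largest change, at least 50 CPM in the higher class and the same direction in every library (between genotypes and sexes, groups without overlap). Where none was called, up to 3 per direction with the smallest p were named. Results for some withheld genes are not reported here.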

Additional observations from a re-analysis of the deposited data

Results flagged for a closer look

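Among wt libraries, 24 measures of the gated cells (their share, their median UMIs and list sums) were tested for a library far from the others by Dixon's ratio, and 2 were past its 95% value. Chance gives about 1 in 20. The list of dendritic lineage regulators summed to 2523 CPM in wt replicate 1, against 1810 to 1923 CPM in the others. The B cell list summed to 5270 CPM in wt replicate 4, against 257 to 380 CPM.

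The cells sorted from peripheral blood for the ZSG reporter (ntCZC) entered no comparison above. Their libraries came from wt, het and null mice of both sexes, 551 to 649 days old, and are pooled here. Of 2109 passing barcodes 29 met the same gate (1.38%, exact 95% interval 0.923 to 1.97). They lay in 8 of 10 libraries with at most 7 in one. In the single library of blood mononuclear cells, from a wt male of 120 days, 1 of 679 barcodes met it (0.147%). Median UMIs of passing barcodes were 2580 to 8600 in the ntCZC libraries and 1845 in this one. The gated ntCZC cells had library medians of 7656 to 19165 UMIs, against 3310.5 over the gated tissue cells. A gate of few UMIs depends on depth, so these shares cannot be compared directly. In the 29 cells Lyz2 stood at 14571 CPM over the pooled counts, against 2450 CPM in the 784 tissue cells, Ccr2 at 618 against 302 CPM, Csf1r at 267 against 87.0 CPM and S100a4 at 1694 against 742 CPM. Il1b stood at 433 against 1139 CPM, Mki67 at 3.25 against 69.4 CPM (1 cell with a UMI), and Siglech at 0 against 101 CPM. These differences were not tested.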

How the results depend on the processing

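Alternatives gave the same direction and call in most named genes, and the cause of each change below was not tested. Gene counts against other classes fell when cells were thinned to 1000 UMIs, where fewer genes were tested. They were 277 of 1472 (type 1), 839 of 3667 (macrophages) and 596 of 1615 (monocytes). The share of tested genes that was called did not fall. Leaving out the clusters led by another class, a choice made after seeing the data, gave 848 of 4017, 1748 of 5467 and 1388 of 3616 tested genes as called. Of these, 533, 1170 and 1001 were among those of the full gate.

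Calls between genotypes and sexes were few and unstable. For het and null against wt they numbered 0 with at least 2 Cd209a UMIs, 2 with DESeq2, 44 with no filter on low counts and 0 to 3 with 1 library left out. For null they numbered 0 with at least 2 Cd209a UMIs, 5 with no covariate, 36 with no filter, 11 with the stricter quality filter and 0 to 8 with 1 library left out, 0 being without null replicate 3 or wt replicate 4. For het they numbered 2 with DESeq2, 1 without the clusters of other classes, 86 with no filter, 4 with the stricter filter and 0 to 10 with 1 library left out, 10 being without het replicate 2. Between the sexes they numbered 1 with at least 2 Cd209a UMIs, 4 without those clusters, 29 with no filter, 4 with the stricter filter and 0 to 4 with 1 library left out. Replicate numbers did not pair the libraries (correlations of -0.10 to 0.03). The replicate block in place of sex gave 2 calls for het and null and 9 for null.

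Share differences turned positive, in percentage points, to 0.426 (female minus male, of the 3 dendritic gates), to 0.0701, 0.171 and 0.282 for het (without those clusters, of Ptprc-positive barcodes, stricter filter), to 0.0275, 0.370 and 0.0133 for het and null (same order), and to 0.5682 for null (of Ptprc-positive barcodes). Against type 1 cells, Ccr2 turned to 0.0163 with the 2 libraries without a group and 0.26 without those clusters, and ran from -0.145 to 0.0529 with 1 library left out, the highest without wt replicate 4. Mki67 turned to 0.00845 and Zbtb46 to 0.0308 without those clusters, and Cd80 ran from -0.217 to 0.135 with 1 library left out. Traf1 against monocytes ran from -0.0174 (without wt replicate 1) to 0.366. Rarres2 in het ran from -0.19 (without het replicate 1) to 4.95. The comparison of cells that entered through Cd209a with those that entered through Clec10a and Flt3 could not be run, since no library held more than 13 of the latter.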

Other observations

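The 2 tissue libraries without a group held 35 of 4323 (0.810%, exact 95% interval 0.565 to 1.12) and 72 of 15974 (0.451%, 0.353 to 0.567) barcodes in the gate, within the range of the libraries with a group. In their gated cells, the neutrophil list summed to 1577 and 1457 CPM, above the 16.2 to 1254 CPM of the libraries in the fit, and the cytokine and chemokine list to 5524 and 5927 CPM, above 3009 to 5235 CPM. Their B cell lists stood at 202 and 339 CPM. In the second of them, 18 of the 91 cells of the cluster led by Igkc and Xist were found, and in the first 0.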
